A study of Mus musculus with 40 samples.

Results

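The genes described here encode 8 G protein-coupled receptors of glutamate and GABA: the metabotropic glutamate receptors Grm2, Grm3, Grm4, Grm5, Grm7 and Grm8, and the GABA-B receptor subunits Gabbr1 and Gabbr2. They were picked by symbol, without use of their levels, from the 41388 genes in the count files, and all 8 passed the limit on low counts in every comparison. Their RNA was followed in 40 libraries of mouse forebrain, made from 2 mouse lines and 4 fractions with 5 replicates in each of 8 groups. Mice of both lines were 21 days old and carried the same Cre-dependent reporter, which fuses EGFP to the ribosomal protein Rpl10a under the CAG promoter at the ROSA26 locus. In RBP4-TRAP mice the Cre came from an RBP4-cre transgene that labels layer 5 pyramidal neurons, and in VGAT-TRAP mice from the Slc32a1 locus, which labels neurons that release GABA. Each replicate was a pool of 2 to 3 forebrains of both sexes, and it gave a whole-cell homogenate (WCH), ribosome-bound RNA captured from the homogenate by the EGFP tag (TRAP), a synaptoneurosome fraction holding pinched-off synaptic endings (SNF), and ribosome-bound RNA captured from that fraction (SynapTRAP, ST). The labels name the tissue as cortex, the protocol a forebrain dissection. WCH and SNF are not selected by cell type and so hold RNA of all cells, and WCH animals carry the same alleles as the others.

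Metabotropic glutamate receptors act through G proteins and not as ion channels. The group I receptor Grm5 (mGlu5) couples to Gq and phospholipase C and is known from postsynaptic membranes, where Homer and Shank proteins hold it. The group II receptors Grm2 and Grm3 and the group III receptors Grm4, Grm7 and Grm8 couple to Gi/o proteins, lower cyclic AMP and often damp transmitter release from axon endings, while Grm3 is also made by astrocytes. The GABA-B receptor works as a pair in which Gabbr1 binds GABA and Gabbr2 couples to the G protein. It opens Kir3 potassium channels, and its KCTD subunits set its kinetics.

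Levels are given in cpm, the counts of a gene per 1000000 counts of its library, from which mitochondrial, rRNA and tRNA genes were first removed. Libraries held 14259535 to 22037703 counts, of which 8950847 to 21976631 remained, so that 1 count stood for 0.0455 to 0.112 cpm. Mitochondrial genes took 0.0584% to 0.511% of the counts in TRAP, 2.01% to 10.004% in WCH, 2.71% to 19.0% in ST and 11.2% to 41.9% in SNF. The labels were checked with Slc32a1, which encodes VGAT. It was at 48.4 to 77.2 cpm in VGAT TRAP and at 1.49 to 4.99 cpm in RBP4 TRAP. The library labelled RBP4 ST replicate 4 held 49.9 cpm of it. The remaining RBP4 ST libraries held 10.9 to 19.7 cpm, and those of VGAT ST 23.3 to 51.3 cpm. Summed markers of GABAergic neurons were at 329.9 cpm in that library (205 to 322 in its group otherwise, 258 to 706 in VGAT ST) and summed striatal markers at 540.1 cpm (196 to 727 and 712 to 2707). It was kept under its label, and without it every receptor gene had the same call in every comparison. Markers of layer 5 neurons summed to 326 to 492.8 cpm in RBP4 TRAP and to 284 to 332 cpm in VGAT TRAP. Of these 4 markers, Fezf2 and Etv1 were higher in RBP4 TRAP and Bcl11b, which striatal neurons also use, in VGAT TRAP. All 7 markers of striatal projection neurons were higher in VGAT TRAP than in VGAT WCH. RBP4 TRAP replicate 5 held more RNA of other cells than its group, with 3187 cpm of astrocyte markers (494 to 922 in the others) and 437 cpm of markers of GABAergic neurons (92.5 to 139). Without its pool no receptor gene gained or lost a call. The synaptic libraries of replicate 3 stood apart in both lines. Their mitochondrial share was 40.2% (RBP4) and 41.9% (VGAT) in SNF, where no other library passed 19.4%, and 15.8% and 19.0% in ST, where no other passed 7.08%. Astrocyte markers summed to 34710 and 33658 cpm in the SNF libraries of replicate 3 and to 11318 to 18196 cpm in the remaining ones. Without pool 3 of the line, 2 calls of receptor genes were lost (Grm3 in TRAP against WCH and Gabbr2 in ST against SNF, both RBP4) and 2 were gained (Grm4 in VGAT TRAP against WCH and, without the RBP4 pool, Grm4 in the difference between the lines in the change from TRAP to ST). In such bulk RNA, fewer cells of a type and less RNA per cell cannot be told apart.

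Differences between fractions and lines were tested with edgeR's quasi-likelihood test over all genes past the limit, and a gene was called at a Benjamini-Hochberg adjusted p of at most 0.05. A log2 fold change of 1 is a doubling, SE is its standard error, and ± is an SD over the 5 libraries of a group. Scaling to library size alone set the median change of all genes tested at -0.34 (RBP4) and -0.31 (VGAT) for TRAP against WCH and at -0.50 and -0.52 for SNF against WCH, so that some changes are also given relative to these medians. With edgeR's TMM factors the same medians were -0.05, -0.06, -0.17 and -0.17.

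**Figure D1:**
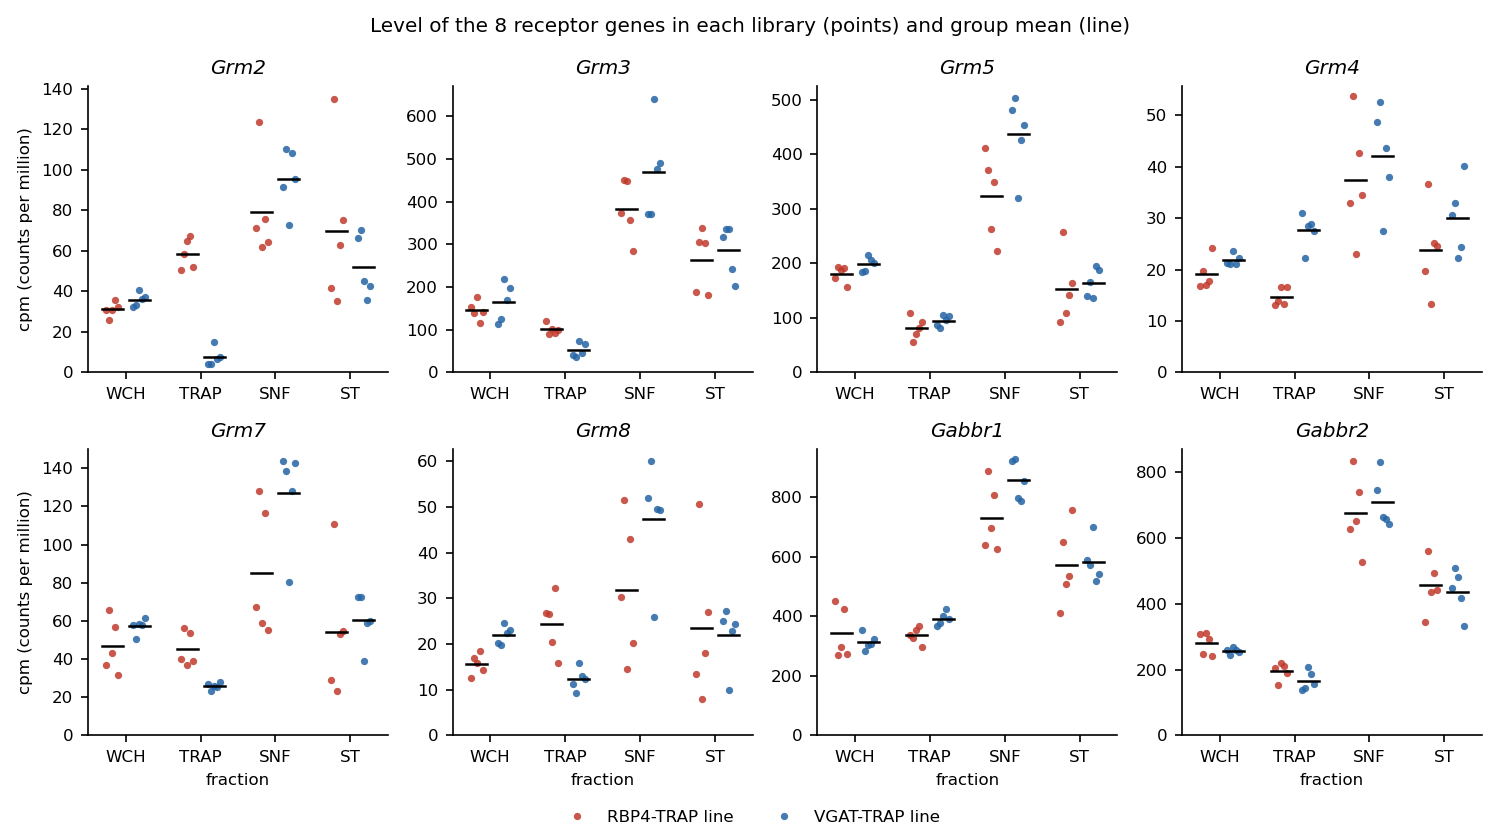
Level of each receptor gene in cpm (vertical axes, linear, from 0) in the 4 fractions, with 1 point per library, RBP4-TRAP in red, VGAT-TRAP in blue and the group mean as a black line. The highest mean of each gene is in VGAT SNF, and Grm2 in VGAT TRAP lies between 4.02 and 14.9 cpm, below its level in every other library.

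Divided by the length of their exons, Gabbr1, Gabbr2 and Grm3 were the most abundant of the 8 genes in all 8 groups. The paper reports a strong 3' bias of its reads, so that counts need not scale with exon length. In cpm without this division Grm5 was above Grm3 in RBP4 WCH (180 and 146), VGAT WCH (199 and 165) and VGAT TRAP (94.6 and 53.1). In the remaining groups Grm3 was above Grm5. The shares and the ratio per kb given below rest on the same division. In RBP4 WCH the level was 47.9 ± 5.66 cpm per kb for Gabbr2, 44.2 ± 11.2 for Gabbr1 and 41.2 ± 6.40 for Grm3. Grm5 followed with 22.6 ± 1.94 cpm per kb, and Grm7, Grm2, Grm4 and Grm8 stood at 7.97 ± 2.39, 6.39 ± 0.723, 3.59 ± 0.571 and 1.99 ± 0.295. The order of the last 5 genes was the same in VGAT WCH, and Grm4 and Grm8 were the last 2 in 7 of the 8 groups. In VGAT TRAP the last places belonged to Grm8 (1.58 ± 0.31 cpm per kb) and Grm2 (1.52 ± 0.91), whose levels overlapped. Each gene had its highest mean in VGAT SNF and its next in RBP4 SNF, but for none of the 8 were these 2 groups apart in every library.

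Among the 6 metabotropic genes, the share of each in their summed level per kb shows how the mixture differed between captures. Grm3 made up 49.0% ± 5.39 in RBP4 WCH and 48.1% ± 5.63 in VGAT WCH. In RBP4 TRAP the share of Grm2 was 18.7% ± 2.79, with libraries between 14.7% and 21.0%, against 6.18% to 9.25% in RBP4 WCH. In VGAT TRAP it was 3.66% ± 1.51, and no library passed 6.21%. Grm4, a small share elsewhere (3.30% to 4.40% as group means), reached 13.4% ± 2.31 in VGAT TRAP. In ST the share of Grm2 was 11.1% ± 3.98 for RBP4 and 7.99% ± 1.502 for VGAT, with overlapping libraries, and that of Grm4 was 3.66% ± 0.99 and 4.40% ± 1.42. Grm3 was at 60.6% ± 12.1 in RBP4 ST and 61.4% ± 7.08 in VGAT ST, and Grm5 at 15.2% ± 3.58 and 16.2% ± 4.48.

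**Figure D2:**
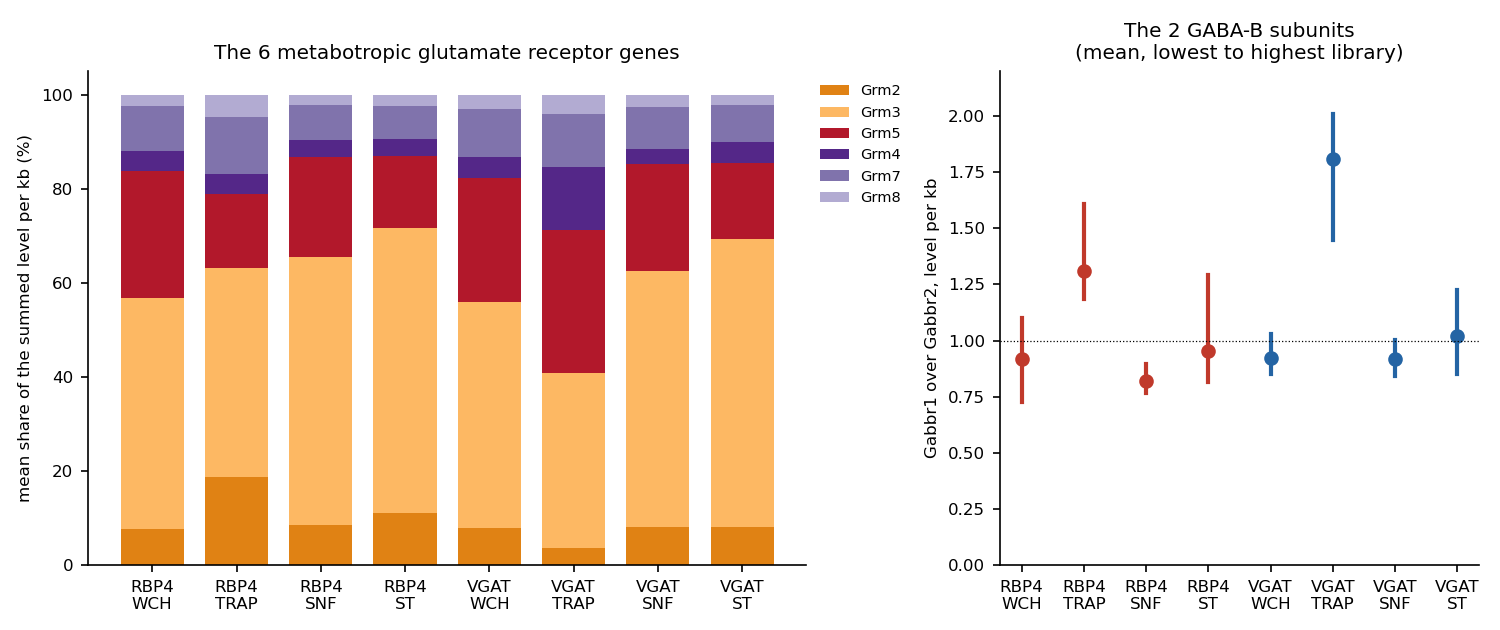
Left, mean share (%) of each of the 6 metabotropic genes in their summed level per kb, stacked to 100% for each group. Right, the ratio of Gabbr1 to Gabbr2 per kb, with the mean as a point and a line from the lowest to the highest library; VGAT TRAP lies between 1.45 and 2.01, above all WCH and SNF libraries.

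TRAP against WCH asks which receptors were on ribosomes of the labelled neurons more or less than in the whole tissue. In the RBP4 line 1 of the 8 genes (Grm2) was higher in TRAP, where 8.37% of all genes tested were higher, and 3 (Grm5, Grm3 and Gabbr2) were lower, where 31.5% were. In the VGAT line 1 gene (Gabbr1) was higher (21% of all genes) and 6 were lower (41.8%). The median over the 8 genes was -0.21 (RBP4) and -0.95 (VGAT). Under TMM factors the RBP4 count was 2 higher and 1 lower, and without pool 1 or without pool 4 it was 1 higher and 1 lower, and without pool 2 or pool 3 it was 1 higher and 2 lower. The VGAT count of higher genes was 2 under TMM, 2 without pool 3 and 0 without pool 2 or pool 4. Markers of glia were lower in TRAP as well. Those of astrocytes were lower in 6 of 7 (RBP4) and 7 of 7 (VGAT) cases, with medians of -2.38 and -2.72, those of oligodendrocytes in 5 of 6 and 6 of 6 (-2.40 and -2.51) and those of microglia in 5 of 5 in both lines (-2.55 and -2.18). Summed oligodendrocyte markers were at 6387 to 9866 cpm in RBP4 WCH and 388 to 5508 in RBP4 TRAP, and at 6505 to 8364 and 433 to 2413 in the VGAT libraries. Summed astrocyte markers were at 494 to 3187 cpm in RBP4 TRAP and 404 to 1742 in VGAT TRAP, against 3746 to 8046 and 3632 to 6379 in WCH. The part of these markers in the change of the receptor genes was not tested.

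SNF against WCH asks which RNAs lie with synaptic endings. All 8 genes were higher in SNF in both lines, where 13.4% (RBP4) and 19.3% (VGAT) of all genes tested were higher and 36.1% and 45.2% lower. Their log2 fold changes lay between 0.84 and 1.395 (RBP4) and between 0.95 and 1.51 (VGAT), with medians of 1.06 and 1.28, beside the medians of all genes given above. Over the 5 pools, 5 of the 8 genes in the RBP4 line and all 8 in the VGAT line had no overlap between SNF and WCH libraries, with SNF above, as had 10.5% and 15.2% of all genes tested. Without pool 3 all 8 genes stayed called in both lines. In the RBP4 line the calls of 2 genes were lost without certain pools. Grm7, at 0.86 with all pools, was not called without pool 1 (0.86, edgeR adjusted p = 0.0777) or pool 4 (0.80, 0.111). Grm8, at 1.03 with all pools, was not called without pool 1 (0.98, 0.0825), pool 2 (0.83, 0.0645) or pool 4 (0.97, 0.0827). Levels of astrocyte markers moved the same way, with 7 of 7 higher in SNF in both lines, and their summed level was 3746 to 8046 cpm in RBP4 WCH, 12935 to 34710 in RBP4 SNF, 3632 to 6379 in VGAT WCH and 11318 to 33658 in VGAT SNF. Other markers rose too: those of oligodendrocytes in 4 of 6 (RBP4) and 5 of 6 (VGAT) cases, of their precursors in 2 of 2 in both lines and of microglia in 4 of 5 and 5 of 5. None of these was lower. Of 4 glutamatergic markers 2 were higher in each line, and 2 (RBP4) and 1 (VGAT) were lower. None of these markers was at 0 in a group, and their part in the change of the receptor genes was not tested.

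ST against SNF asks which RNAs of the synaptic fraction were on tagged ribosomes of the labelled neurons. In the VGAT line all 8 genes were lower in ST, where 11.2% of all genes tested were lower and 16.3% higher, with a median of -0.79. For RBP4 all 8 values were below 0, with a median of -0.55, and 2 genes (Grm5 and Gabbr2) passed the threshold, where 5.46% of all genes were lower and 5.64% higher. With the pool as a block, 5 genes passed there: Grm3 (-0.54, edgeR adjusted p = 0.0394), Grm4 (-0.66, 0.0268) and Grm7 (-0.72, 0.0244) were called as well. Leaving out a pool moved both counts. For RBP4, 0 genes were called without pool 1 or pool 4 and 1 without pool 3, and in the VGAT line 7 were called without pool 1 or pool 2, 5 without pool 4 and 6 without pool 5. Without pool 3 it stayed at 8. With mitochondrial, rRNA and tRNA genes kept in the library size the VGAT count was 4. Oligodendrocyte markers were higher in ST in 3 of 6 cases in each line (Mbp, Mobp and Cnp) and lower in 1 in the VGAT line (Mog). Their sum was 12186 to 18772 cpm in RBP4 SNF, 31796 to 44757 in RBP4 ST, 14880 to 18033 in VGAT SNF and 32577 to 54690 in VGAT ST. Endothelial markers were higher in 3 of 4 (RBP4) and 2 of 4 (VGAT) cases, with sums of 7.43 to 20.1 cpm in RBP4 SNF, 5.36 to 242 in RBP4 ST, 13.3 to 37.7 in VGAT SNF and 11.7 to 204 in VGAT ST. Of 7 astrocyte markers none was called for RBP4, and for VGAT Gfap was higher and Gja1 lower. Of the markers of the labelled neurons, no layer 5 marker was called for RBP4, and Slc17a6 alone of the glutamatergic ones, lower (-1.02, edgeR adjusted p = 0.0358). For VGAT the GABAergic markers Slc32a1 (0.58) and Dlx1 (0.44) were higher, and Gad1, Gad2, Dlx2 and the striatal markers were not called. Summed GABAergic markers were at 249 to 657 cpm in VGAT SNF, 258 to 706 in VGAT ST and 3027 to 5203 in VGAT TRAP. The part of all these markers in the lower receptor values was not tested.

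**Figure D3:**
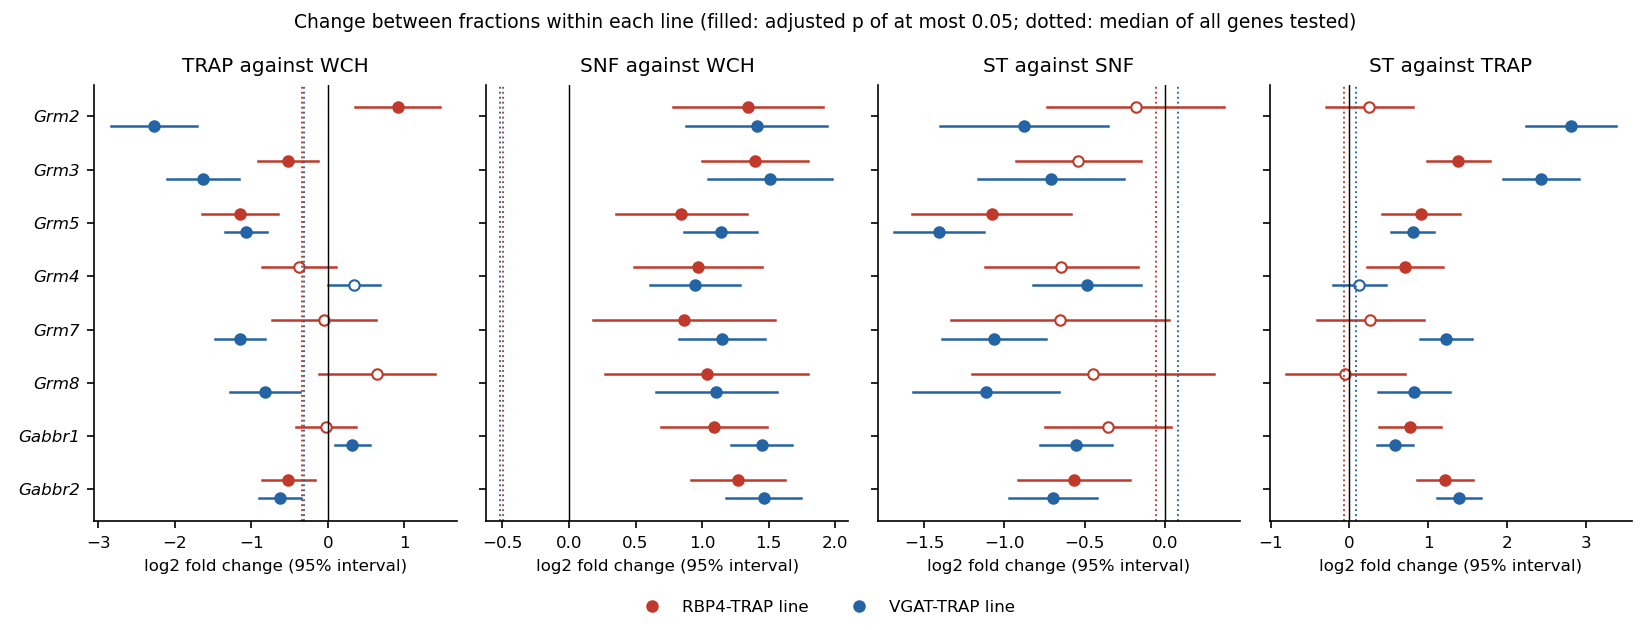
Log2 fold change (horizontal axes) of each gene between fractions within the RBP4-TRAP (red) and VGAT-TRAP (blue) lines, with 95% intervals; filled points passed an adjusted p of at most 0.05 and dotted lines mark the median of all genes tested. All SNF against WCH points lie between 0.84 and 1.51, and all ST against SNF points lie below 0.

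The study called an RNA a local translation candidate where it rose from WCH to SNF and again from SNF to ST, and a somatic candidate where it rose from WCH to TRAP and fell from WCH to SNF. With these rules and an unadjusted p under 0.05 in edgeR's test for each step, 0.417% (RBP4) and 1.29% (VGAT) of all genes tested were local candidates, and 5.94% and 13.2% somatic ones. The cut-off on p for each step was set here. The study states that it filtered on adjusted p-values except where noted, and its lists of local candidates are longer in both lines. These counts therefore do not reproduce its lists. As the rules were applied here, none of the 8 receptor genes met either in either line, and none did at an adjusted p of at most 0.05 or with TMM factors. All 8 met the first step of the local rule and none the second.

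Grm2 (chromosome 9, 106643095 to 106656082, minus strand; coordinates as in the count files, which match GRCm38) showed the largest fold difference between the TRAP libraries of the lines among the 8 genes. In RBP4 TRAP its levels in replicates 1 to 5 were 50.7, 58.5, 64.9, 67.5 and 52.0 cpm, and in VGAT TRAP 4.02, 4.10, 14.9, 6.55 and 7.68 cpm. Every RBP4 library was above every VGAT library. The log2 fold change of RBP4 over VGAT was 2.98 (SE 0.31, edgeR adjusted p = 8.59e-09), and 2.82 to 3.39 in the 10 fits that left out 1 pool each. In this comparison of TRAP between the lines 4 of the 8 genes were higher in RBP4 (12.9% of all genes tested) and 1 was lower (15.1%). The count of higher genes was 2 without RBP4 pool 4 or VGAT pool 2 and 3 without VGAT pool 4.

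Against its own WCH, Grm2 rose in RBP4 TRAP and fell in VGAT TRAP. WCH levels were 31.1, 26.0, 31.0, 35.8 and 32.5 cpm in the RBP4 line and 32.3, 33.3, 40.6, 36.5 and 37.3 cpm in the VGAT line, and in neither line did they overlap with TRAP. The log2 fold change was 0.91 in the RBP4 line (SE 0.27, edgeR adjusted p = 0.0102) and -2.27 in the VGAT line (SE 0.27, edgeR adjusted p = 4.69e-07). Less the median change of all genes these are 1.25 and -1.96. Markers of glutamatergic neurons differed in the same direction. All 4 were higher in RBP4 TRAP than in VGAT TRAP. They summed to 955, 954, 902, 1024 and 679 cpm in RBP4 TRAP and to 39.7, 41.1, 252, 61.8 and 92.6 cpm in VGAT TRAP. The VGAT TRAP library with the highest Grm2 level, replicate 3, was also the one with the highest sum of these markers. How far these markers account for the Grm2 level there was not tested. Without VGAT pool 3 the change of Grm2 in VGAT TRAP was the lowest of the fits without a pool, -2.63.

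**Figure D4:**
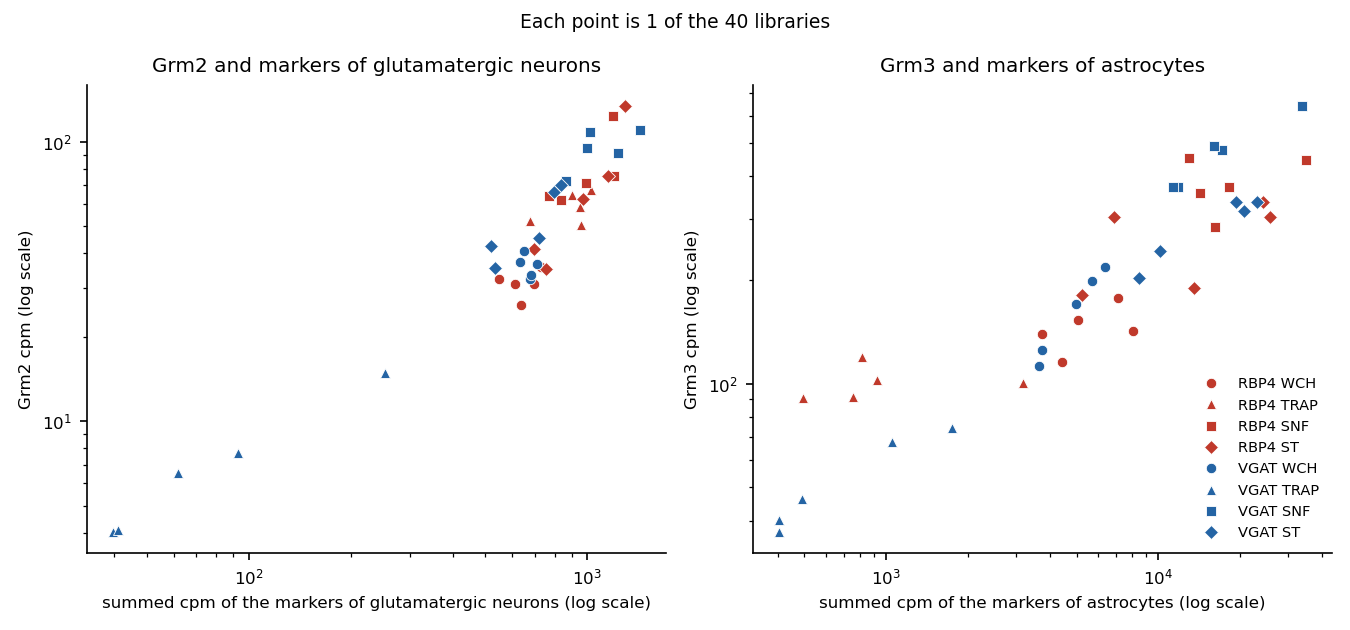
Left, Grm2 against the summed level of 4 markers of glutamatergic neurons; right, Grm3 against the summed level of 7 markers of astrocytes, both in cpm on log axes with 1 point per library (shape for the fraction, red for RBP4-TRAP, blue for VGAT-TRAP). The 5 VGAT TRAP libraries lie at the lower left of the Grm2 panel, at 39.7 to 252 cpm of the markers, and RBP4 TRAP lies above VGAT TRAP in the Grm3 panel.

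In the synaptic fractions no difference in Grm2 between the lines was called. SNF levels were 71.4, 124, 61.9, 75.7 and 64.3 cpm in the RBP4 line and 91.7, 110, 72.7, 108 and 95.3 cpm in the VGAT line. ST levels were 41.5, 135, 35.2, 62.7 and 75.4 cpm in RBP4 ST and 66.5, 70.4, 45.2, 35.6 and 42.5 cpm in VGAT ST, and the groups overlapped in both fractions. RBP4 replicate 2 held the highest level in SNF and in ST alike. In ST the difference of RBP4 less VGAT was 0.43 with a 95% interval of -0.16 to 1.01 (edgeR adjusted p = 0.591). From TRAP to ST, Grm2 rose in the VGAT line by a log2 fold change of 2.81 (SE 0.28, edgeR adjusted p = 1.03e-08), and in the RBP4 line the change was 0.25 with an interval of -0.30 to 0.80. The test of that difference, an interaction of line and fraction that takes ST less TRAP in RBP4 and subtracts the same in VGAT, gave -2.55 (SE 0.42, edgeR adjusted p = 6.51e-05), and -3.01 to -2.27 in the 10 fits without a pool. Of the 8 genes, 2 had a negative interaction past the threshold (5.79% of all genes tested) and none a positive one (5.02%), although Grm4 was above 0 at an unadjusted p under 0.05. DESeq2 and edgeR's likelihood ratio test gave 0 positive genes too. The count of negative genes was 3 with the pool as a block, 4 without RBP4 pool 2 and 1 without RBP4 pool 1, VGAT pool 1 or VGAT pool 2, and 1 gene was positive without RBP4 pool 3. The 4 glutamatergic markers had negative interactions as well, all past the threshold, and 3 of them were higher in VGAT ST than in VGAT TRAP.

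Grm3 (chromosome 5, 9485236 to 9725352, minus strand), the other group II receptor, was low in TRAP and high in the synaptic fractions of both lines. The order of its group means ran from 470 ± 111 cpm in VGAT SNF through 383 ± 69.0 in RBP4 SNF, 287 ± 61.0 in VGAT ST, 263 ± 72.8 in RBP4 ST, 165 ± 45.6 in VGAT WCH, 146 ± 22.6 in RBP4 WCH and 101 ± 11.6 in RBP4 TRAP to 53.1 ± 16.8 in VGAT TRAP. Neighbours in this order overlapped except for RBP4 TRAP and VGAT TRAP. RBP4 TRAP libraries held 120, 91.1, 102, 91.5 and 101 cpm and VGAT TRAP libraries 40.3, 37.1, 74.3, 46.3 and 67.7 cpm. The difference was 0.93 (SE 0.21, edgeR adjusted p = 0.00119), while in WCH it was -0.18 with an interval of -0.61 to 0.25.

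Grm3 fell in TRAP of the VGAT line by 1.63 on the log2 scale (SE 0.23, edgeR adjusted p = 2.97e-06). Its change in RBP4 TRAP was -0.53 (SE 0.19, edgeR adjusted p = 0.0308), which is -0.19 once the median change of all genes is subtracted. This call was lost without pool 1 (edgeR adjusted p = 0.0514), pool 2 (0.0944), pool 3 (0.105) or pool 4 (0.0633), and with TMM factors (-0.24, 0.389). The rise from TRAP to ST was 2.43 in VGAT (SE 0.23, edgeR adjusted p = 6.65e-09) and 1.38 in RBP4 (SE 0.19, edgeR adjusted p = 3.78e-06), with no overlap between the groups in either line. The interaction was -1.05 (SE 0.30, edgeR adjusted p = 0.0188), and it was not called without RBP4 pool 1 (edgeR adjusted p = 0.0811), VGAT pool 1 (0.0632) or VGAT pool 2 (0.0821). From TRAP to ST, astrocyte markers rose as Grm3 did. Their summed level was 494 to 3187 cpm in RBP4 TRAP and 404 to 1742 cpm in VGAT TRAP, against 5246 to 25619 cpm in RBP4 ST and 8498 to 23092 cpm in VGAT ST, and all 7 were higher in ST than in TRAP in both lines. In TRAP between the lines 1 of the 7 (Aldh1l1) was called, higher in RBP4. Their part in the level of Grm3 was not tested.

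From SNF to ST, Grm3 fell by 0.71 in the VGAT line (SE 0.22, edgeR adjusted p = 0.0186) and was at -0.54 in the RBP4 line (SE 0.19, edgeR adjusted p = 0.068 without the pool as a block). Grm2 fell by 0.88 in the VGAT line (SE 0.25, edgeR adjusted p = 0.0117) and was at -0.18 in the RBP4 line. In the VGAT line neither was called without pool 4 (edgeR adjusted p = 0.0949 for Grm3 and 0.0958 for Grm2) or pool 5 (0.0905 and 0.0657).

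Grm5 (chromosome 7, 87602544 to 88134907, plus strand), the group I receptor, was lower in TRAP than in WCH in both lines. RBP4 TRAP held 109, 55.5, 70.0, 81.4 and 91.7 cpm and VGAT TRAP 87.5, 80.7, 106, 96.0 and 103 cpm. WCH held 174, 193, 188, 191 and 156 cpm in the RBP4 line and 185, 186, 216, 205 and 200 cpm in the VGAT line, above TRAP in every library. Grm5 fell by 1.15 in RBP4 TRAP (SE 0.24, edgeR adjusted p = 0.000729) and by 1.07 in VGAT TRAP (SE 0.13, edgeR adjusted p = 8.43e-07). Beyond the median change of all genes it fell by 0.81 and 0.76. Between the TRAP libraries of the lines no difference was called (-0.22, 95% interval -0.61 to 0.18, edgeR adjusted p = 0.44).

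Grm5 also showed the largest fall from SNF to ST among the 8 genes in each line. SNF held 412, 371, 263, 350 and 223 cpm in the RBP4 line and 482, 503, 320, 427 and 455 cpm in the VGAT line, and ST held 91.7, 258, 109, 143 and 165 cpm and 140, 166, 136, 195 and 188 cpm. VGAT ST and SNF did not overlap, and in the RBP4 line 1 ST library, replicate 2, lay above the lowest SNF library. The change was -1.41 in the VGAT line (SE 0.13, edgeR adjusted p = 7.87e-08) and -1.08 in the RBP4 line (SE 0.24, edgeR adjusted p = 0.00472). The RBP4 call was lost without pool 1 (-0.84, edgeR adjusted p = 0.0629) or pool 4 (-1.02, 0.0524). Compared with TRAP, Grm5 was higher in ST by 0.91 in the RBP4 line (SE 0.24, edgeR adjusted p = 0.00254, but 0.0579 without pool 2) and in the VGAT line by 0.80 (SE 0.13, edgeR adjusted p = 1.49e-05).

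Among the group III receptors, Grm4 (chromosome 17, 27422387 to 27513341, minus strand) ran opposite to the others in TRAP. RBP4 TRAP held 13.1, 13.9, 16.6, 13.2 and 16.6 cpm and VGAT TRAP 31.1, 22.3, 28.5, 28.8 and 27.5 cpm, with no overlap. RBP4 less VGAT was -0.91 (SE 0.19, edgeR adjusted p = 0.000356), and -0.98 to -0.87 in the 10 fits without a pool. In WCH the difference was -0.19, with an interval of -0.57 to 0.19. Against WCH, Grm4 in VGAT TRAP was at 0.34 (SE 0.16, edgeR adjusted p = 0.0726), higher in 5 of 5 pools, and it was called without pool 3 (0.36, edgeR adjusted p = 0.0409) and with TMM factors (0.59, 0.00213). In RBP4 TRAP it was at -0.38 (SE 0.23, edgeR adjusted p = 0.198), although every TRAP library lay below every WCH library. The 7 markers of striatal projection neurons and the 5 of GABAergic neurons were higher in VGAT TRAP too, at 3256 to 5073 and 3027 to 5203 cpm in sum, against 111 to 295 and 92.5 to 437 cpm in RBP4 TRAP. None was at 0, and their part in the level of Grm4 was not tested.

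Grm4 was the one gene of the 8 without a call between TRAP and ST in the VGAT line (0.12, 95% interval -0.21 to 0.46). VGAT ST held 30.6, 32.9, 22.3, 24.5 and 40.2 cpm, so that the groups overlapped. RBP4 ST held 19.7, 36.7, 13.3, 25.1 and 24.6 cpm, and it was above RBP4 TRAP by 0.70 (SE 0.23, edgeR adjusted p = 0.013), a call lost without pool 2 (0.47, edgeR adjusted p = 0.101) or pool 4 (0.65, 0.0675). The interaction was 0.58 (edgeR adjusted p = 0.17) and was called only without RBP4 pool 3 (0.78, 0.0425). From SNF to ST, Grm4 fell by 0.49 in the VGAT line (SE 0.16, edgeR adjusted p = 0.0283), and this was lost without pool 1 (0.129), pool 2 (0.114) or pool 4 (0.146).

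Grm7 (chromosome 6, 110645581 to 111567230, plus strand), a receptor of the presynaptic active zone with low affinity for glutamate, and Grm8 (chromosome 6, 27275121 to 28135178, minus strand) were both higher in RBP4 TRAP than in VGAT TRAP. Grm7 stood at 40.2, 56.3, 36.9, 53.7 and 39.3 cpm in RBP4 TRAP and at 27.1, 23.5, 25.7, 25.4 and 27.9 cpm in VGAT TRAP, without overlap. Grm8 stood at 26.8, 26.5, 20.4, 32.2 and 15.9 cpm in RBP4 TRAP and at 11.3, 9.39, 15.9, 13.1 and 12.4 cpm in VGAT TRAP, where the lowest RBP4 library and the highest VGAT library met. The log2 fold change of RBP4 over VGAT was for Grm7 0.80 (SE 0.27, edgeR adjusted p = 0.0226) and for Grm8 0.97 (SE 0.31, edgeR adjusted p = 0.0164). Grm7 was not called without RBP4 pool 4 (edgeR adjusted p = 0.0602), VGAT pool 2 (0.0606) or VGAT pool 4 (0.0556), and Grm8 not without RBP4 pool 4 (0.0537) or VGAT pool 2 (0.0571).

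Relative to WCH both genes fell in TRAP of the VGAT line. WCH of that line held 50.7 to 61.4 cpm of Grm7 and 19.7 to 24.6 cpm of Grm8, above all TRAP libraries. Grm7 fell by 1.14 (SE 0.16, edgeR adjusted p = 2.95e-06) and Grm8 by 0.82 (SE 0.22, edgeR adjusted p = 0.00291). For RBP4, Grm7 was at -0.05 (95% interval -0.73 to 0.63), a value that is 0.24 with TMM factors, and Grm8 at 0.64 (SE 0.37, edgeR adjusted p = 0.168), higher in 5 of 5 pools and called with TMM factors (0.94, 0.0473). In WCH itself every RBP4 library (12.5 to 18.5 cpm) had less Grm8 than every VGAT library, a difference that was not called (-0.50, 95% interval -1.11 to 0.12, edgeR adjusted p = 0.9999).

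In ST, levels of both genes spread widely between replicates of the RBP4 line. Grm7 held 29.0, 111, 23.3, 53.2 and 54.7 cpm and Grm8 13.5, 50.6, 8.08, 18.1 and 27.0 cpm there, with replicate 2 highest and replicate 3 lowest for both. In VGAT ST, Grm7 held 72.6, 72.6, 39.2, 59.1 and 59.9 cpm and Grm8 25.1, 27.3, 9.996, 22.8 and 24.3 cpm, with replicate 3 lowest for both. From TRAP to ST both rose in the VGAT line, Grm7 by 1.23 (SE 0.16, edgeR adjusted p = 4.89e-07) and Grm8 by 0.82 (SE 0.22, edgeR adjusted p = 0.00239), and from SNF to ST both fell there, by 1.06 and 1.11 (edgeR adjusted p = 2e-05 and 0.000521). In the RBP4 line ST less TRAP was 0.26 for Grm7 (95% interval -0.42 to 0.94) and -0.05 for Grm8 (-0.80 to 0.70), a value that is 0.01 with TMM factors. The interaction was -0.97 for Grm7 (edgeR adjusted p = 0.0981) and -0.87 for Grm8 (0.212). Without RBP4 pool 2 both passed (Grm7 -1.31, edgeR adjusted p = 0.00373, and Grm8 -1.33, 0.0208), and Grm7 passed with the pool as a block (-1.10, 0.0113). Gm20387, an antisense gene that overlaps the start of Grm7, had at most 154 counts in a library. The library kit does not keep the strand, and the paper counted only unambiguous reads. Reads in the part shared by both genes may thus be missing from Grm7. Gm28111, antisense to Grm2, had at most 6.

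The subunits of the GABA-B receptor took different courses from WCH to TRAP, a contrast between genes that was not itself tested. Gabbr1 (chromosome 17, 37045966 to 37075067, plus strand) held 336, 329, 354, 367 and 297 cpm in RBP4 TRAP and 368, 379, 401, 425 and 390 cpm in VGAT TRAP, the latter all higher. This difference was not called (-0.22, 95% interval -0.54 to 0.09, edgeR adjusted p = 0.305). WCH held 450, 271, 298, 425 and 273 cpm in the RBP4 line and 354, 283, 303, 307 and 324 cpm in the VGAT line. In the VGAT line Gabbr1 was above WCH by 0.32 (SE 0.11, edgeR adjusted p = 0.0142), with no overlap, and without pool 2 or pool 4 it was not called (edgeR adjusted p = 0.0625 and 0.0686). In the RBP4 line it was at -0.03 (95% interval -0.42 to 0.37), and at 0.27 with TMM factors.

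Gabbr2 (chromosome 4, 46662318 to 46991873, minus strand) stood lower in TRAP than in WCH in all 5 pools of each line. TRAP held 204, 154, 221, 211 and 189 cpm (RBP4) and 138, 144, 209, 186 and 156 cpm (VGAT), and WCH 241 to 310 and 245 to 269 cpm, with no overlap. Gabbr2 fell by 0.63 in VGAT TRAP (SE 0.13, edgeR adjusted p = 0.000369) and by 0.52 in RBP4 TRAP (SE 0.17, edgeR adjusted p = 0.0189). Beyond the median change of all genes it fell by 0.32 and 0.18. The RBP4 call was lost without pool 1 (edgeR adjusted p = 0.0635) or pool 4 (0.0622) and with TMM factors (-0.23, 0.327). The ratio of Gabbr1 to Gabbr2 per kb was 0.92 ± 0.08 in VGAT WCH and 1.81 ± 0.23 in VGAT TRAP, and 0.92 ± 0.17 in RBP4 WCH and 1.31 ± 0.17 in RBP4 TRAP. RBP4 and VGAT TRAP overlapped in this ratio, and in neither line did TRAP overlap with WCH. The ratio is a description, without a test.

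SNF means were 732 ± 113 (RBP4) and 858 ± 67.1 cpm (VGAT) for Gabbr1 and 676 ± 117 and 708 ± 80.4 cpm for Gabbr2. In ST they were 573 ± 134 and 584 ± 70.6 cpm for Gabbr1 and 456 ± 79.5 and 437 ± 67.5 cpm for Gabbr2. From SNF to ST, Gabbr1 fell by 0.55 and Gabbr2 by 0.70 in the VGAT line (edgeR adjusted p = 0.000509 and 0.000371). In the RBP4 line Gabbr2 was lower by a log2 change of -0.57 (edgeR adjusted p = 0.032), lost without pool 1 (0.156), pool 3 (0.0872) or pool 4 (0.132), and Gabbr1 was at -0.35 (95% interval -0.75 to 0.04). Both subunits were higher in ST than in TRAP in both lines, Gabbr1 by 0.77 and 0.57 and Gabbr2 by 1.22 and 1.39 in RBP4 and VGAT. In that comparison 5 of the 8 genes were higher in the RBP4 line, where 26% of all genes tested were, and 7 in the VGAT line (37.5%), while 0 were lower, where 29.1% and 34% of all genes were. Without RBP4 pool 2 the count in the RBP4 line was 3, and without RBP4 pool 4 it was 4. Markers of oligodendrocytes (6 of 6), microglia (5 of 5) and endothelial cells (4 of 4) were also higher in ST than in TRAP in both lines. The oligodendrocyte markers summed to 388 to 5508 cpm in RBP4 TRAP, 31796 to 44757 in RBP4 ST, 433 to 2413 in VGAT TRAP and 32577 to 54690 in VGAT ST, and their part in the rise of the receptor genes was not tested.

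Between the lines, 5 of the 8 genes were called in TRAP and none in the other fractions. In WCH, SNF and ST none of the 8 genes was called in edgeR's quasi-likelihood test, its likelihood ratio test or DESeq2, where 0.00592%, 0.00592% and 0.0592% of all genes tested were higher in RBP4 and 0.00592%, 0.0118% and 0.266% lower. At an unadjusted p under 0.05 the counts were 0 in WCH, 2 in SNF (Grm5 at -0.43 and Grm7 at -0.57) and 0 in ST. In ST the values lay between -0.33 (Grm4, 95% interval -0.71 to 0.05) and 0.43 (Grm2). The narrowest interval in ST was that of Gabbr2, -0.23 to 0.35, and the widest that of Grm8, -0.51 to 0.71. These comparisons share libraries with those of TRAP, SNF and ST within the lines. Markers of the labelled neurons differed less between the lines in ST than in TRAP. GABAergic markers lay from -0.90 (Slc32a1) to -0.58 (Gad2) in ST and from -5.25 (Dlx1) to -4.34 (Slc32a1) in TRAP. No GABAergic, glutamatergic or layer 5 marker was called in ST, and of the striatal ones Penk (-1.85) and Adora2a (-1.75) were. All 5 GABAergic and 7 striatal markers fell from TRAP to ST in the VGAT line. The part of this in the receptor values was not tested.

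**Figure D5:**
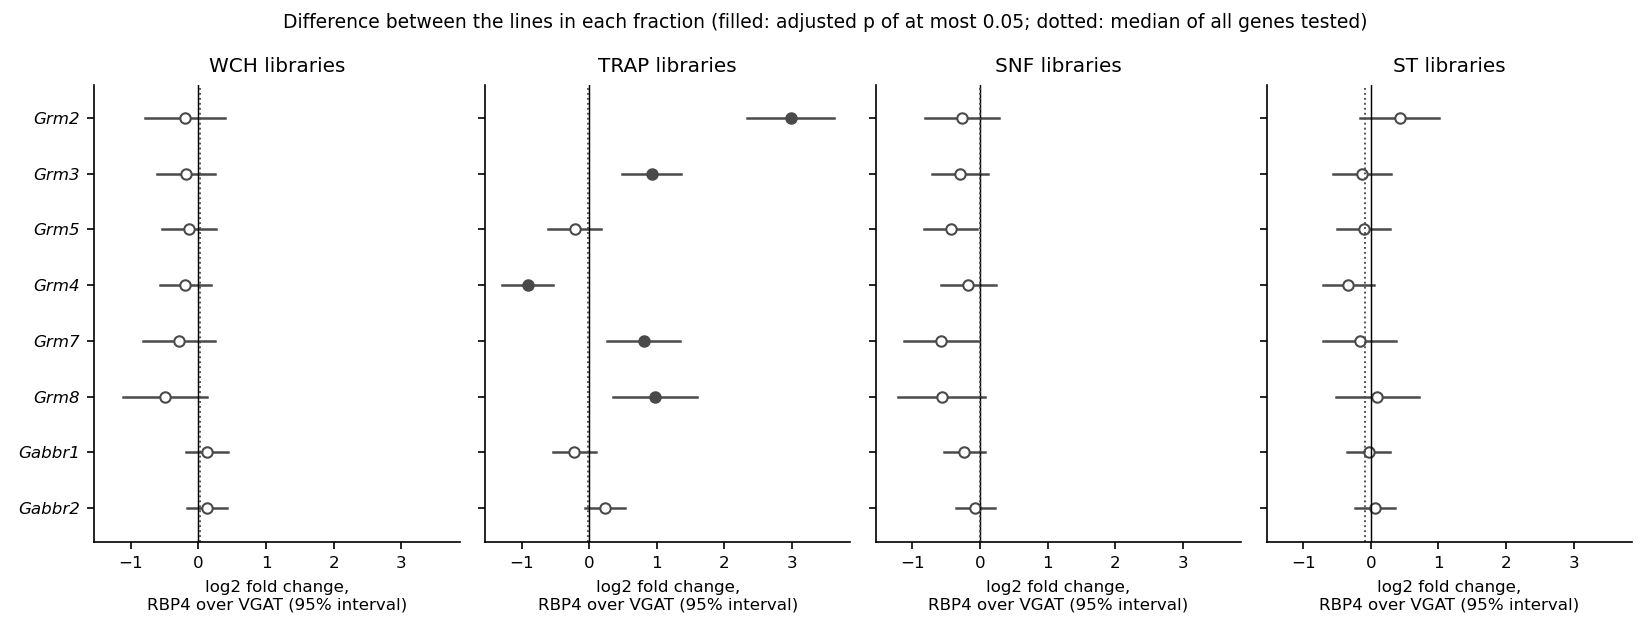
Log2 fold change of RBP4 over VGAT (horizontal axes, 95% intervals) in WCH, TRAP, SNF and ST libraries; filled points passed an adjusted p of at most 0.05. In TRAP 4 genes lie to the right of 0 and Grm4 to the left as filled points, from -0.91 to 2.98, and in the other 3 fractions all points are open.

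Other genes of the pathways were counted from 5 lists with 63 genes. In SNF against WCH their genes moved both ways, where 13.4% (RBP4) and 19.3% (VGAT) of all genes tested were higher and 36.1% and 45.2% lower. Of 13 genes for G protein subunits, 2 were higher in each line (Gnai2, the alpha subunit of a Gi protein, at 0.77 and 0.66, and Gng7) and 9 (RBP4) or 11 (VGAT) were lower, led by the gamma subunit Gng2 (-1.26) and the beta subunit Gnb4 (-1.13). Of 12 regulators that end or desensitise receptor signals none was higher and 8 or 9 were lower, led by Rgs17 (-1.37) in the RBP4 line and Rgs8 (-1.07) in the VGAT line. Of 15 effectors tested, 6 and 7 were higher, led in both lines by the adenylyl cyclase Adcy2 (1.04 and 1.21), and 4 in each were lower, led by the phospholipase Plcb1 (-0.99 and -1.10). Of 16 scaffolds and partners, 3 and 4 were higher, led by Elfn1, an adhesion protein that binds group III receptors across the synapse (1.22 and 1.13), and 6 and 8 were lower, led by Frmpd4 (-1.13) and Homer1 (-1.16). Of 6 partners of the GABA-B receptor, 3 were higher in each line, led by App (1.41 and 1.67), and 2 were lower, led by Kctd8 (-1.28) in RBP4 and Kctd16 (-1.33) in VGAT. The median log2 fold changes (RBP4 and VGAT) were -0.81 and -0.89 for G proteins, 0.50 and 0.56 for effectors, 0.20 and 0.31 for GABA-B partners, -0.34 and -0.55 for scaffolds and -0.80 and -1.02 for regulators, beside -0.50 and -0.52 over all genes tested.

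In ST against SNF 16.3% (VGAT) and 5.64% (RBP4) of all genes tested were higher and 11.2% and 5.46% lower. In the VGAT line 10 of 16 scaffolds were higher, led by Shank3 (2.46, SE 0.21, edgeR adjusted p = 2.33e-08), and 2 were lower, led by Caml (-0.59). For RBP4, 5 were higher, again led by Shank3 (2.32, SE 0.28, edgeR adjusted p = 2.06e-05), and none was lower. Of the effectors 3 (RBP4) and 6 (VGAT) were higher, led by the diacylglycerol kinase Dgkz (1.38 and 1.60), and 4 and 5 were lower, led by Kcnj3, a Kir3 potassium channel subunit opened through the GABA-B receptor (-1.26 and -1.52). Regulators were higher in 2 and 7 cases, led by the receptor kinase Grk2 (1.22) and by Arrb1 (1.66), and G protein subunits in 2 and 4 cases, led by Gna11 (0.77) and Gng7 (1.31), with none lower in either list. GABA-B partners were lower in 1 and 3 cases, led by Ajap1 (-0.60) and Pianp (-0.75), and Kctd12 was higher in VGAT (0.49). Medians were highest for scaffolds, 0.49 (RBP4) and 0.75 (VGAT), and lowest for GABA-B partners, -0.36 and -0.34, beside -0.05 and 0.08 over all genes tested.

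In TRAP against WCH 8.37% (RBP4) and 21% (VGAT) of all genes tested were higher and 31.5% and 41.8% lower. Among effectors 7 (RBP4) and 11 (VGAT) of 15 were lower, led by Prkca (-1.28) and Kcnj3 (-1.24), and 1 each was higher, Dgkz (0.65) in RBP4 and the striatal adenylyl cyclase Adcy5 (1.23) in VGAT. Elfn1 led the scaffolds in opposite directions, at -1.72 in RBP4 and 1.75 in VGAT, with 5 and 4 of 16 lower and 2 and 4 higher. The leading lower scaffold in VGAT was Homer2 (-1.09). G protein subunits counted 3 higher and 3 lower in RBP4, led by Gnb2 (0.62) and Gnb4 (-1.29), and 4 and 4 in VGAT, led by Gng7 (1.47) and Gnb4 (-1.01). Regulators counted 2 higher and 4 lower in RBP4, led by Rgs14 (0.89) and the receptor kinase Grk3 (-1.31), and 4 higher and 1 lower in VGAT, led by Rgs8 (0.93) and Grk3 (-0.69). Of the GABA-B partners Kctd12 (-1.05) was lower in RBP4, and in VGAT Kctd8 (1.27) was higher and Kctd16 (-0.56) lower. The lowest median was that of effectors, -0.60 (RBP4) and -0.58 (VGAT), and those of the other lists lay between -0.27 and 0.22, beside -0.34 and -0.31 over all genes tested.

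TRAP differed between the lines for Elfn1 by -3.58 (SE 0.26, edgeR adjusted p = 5.91e-12), for Adcy5 by -2.08, for Rgs12 by -2.32, for Kctd12 by -1.52 and for Gng7 by -1.41, the leading genes of their lists on the VGAT side. On the RBP4 side the leading genes were Dgkz (1.13), Rgs14 (0.88) and Gnai1 (0.57). The lists counted 2 higher in RBP4 and 2 lower for G proteins, 3 and 1 for effectors, 0 and 2 for GABA-B partners, 2 and 2 for scaffolds and 2 and 4 for regulators. Of all genes tested 12.9% were higher and 15.1% lower there. In WCH, SNF and ST none of the 62 genes tested was called between the lines in edgeR's test, with 0, 3 and 7 at an unadjusted p under 0.05. The interaction was called for Gng7 (1.30), Adcy5 (1.52), Dgkz (-1.11), Kctd12 (1.396), Elfn1 (2.70) and Rgs12 (1.95) as leading genes. Of the 62 genes tested, 9 were called above 0 and 2 below, where 5.02% and 5.79% of all genes tested were.

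In ST against TRAP 37.5% (VGAT) and 26% (RBP4) of all genes tested were higher and 34% and 29.1% lower. In the VGAT line 13 of 15 effectors were higher, led by Adcy1 (2.98), and 2 were lower, led by Plcb1 (-0.62). For RBP4, 8 were higher, also led by Adcy1 (2.30), and Plcb1 was lower (-0.76). Among the 12 regulators 8 were lower in VGAT, led by Rgs8 (-1.43), and 5 in RBP4, led by Rgs7 (-1.46), with Grk3 (1.11) and Arrb1 (1.66) leading the 3 and 4 that were higher. G protein subunits counted 4 higher and 6 lower in VGAT, led by Gnai2 (1.35) and Gnb5 (-2.23), and 3 and 7 in RBP4, led by Gnai2 (1.62) and Gng3 (-2.05). Scaffolds counted 6 higher and 6 lower in VGAT and 6 and 5 in RBP4, led in both by Homer2 (2.72 and 2.47) and Siah1a (-1.69 and -1.32). Of the GABA-B partners 2 were higher in each line, led by App (0.79) in VGAT and Kctd12 (1.38) in RBP4, and 2 lower, led by Kctd8 (-2.60 and -1.21). The median of effectors was 0.70 (RBP4) and 0.92 (VGAT) and that of regulators -0.34 and -0.86, beside -0.07 and 0.08 over all genes tested.

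The genes whose pattern over the 40 libraries came closest were ranked by Pearson's r of log2(cpm + 1) among the 10791 genes whose mean reached 5 cpm. These libraries share pools, fractions and depth, so that r is given as a description. For Grm2 they were Rtn4r, a receptor for the myelin inhibitor Nogo (r = 0.985), and Boc (0.972), and for Grm3 the membrane protein Gpm6b (0.977) and Igfbp5 (0.971). For Grm5 they were Slc24a2 (0.972) and Slitrk4 (0.965), for Grm7 Slit2 (0.933) and Stt3b (0.922), and for Grm8 Grm7 itself (0.913) and B3galnt1 (0.903). Grm4 came closest to a gene without a symbol (0.943) and Slc38a1, a glutamine transporter (0.920). For Gabbr1 the nearest were Mfsd1 (0.956) and Sdf4 (0.944), and for Gabbr2 Sec63 (0.975) and Sel1l (0.969). With Spearman's correlation 10 of these 16 pairs were the same. Among the 8 receptor genes, Grm8 with Grm7 was the only pair in which one stood among the nearest genes of the other by Pearson's r. With Spearman's correlation this pair was not kept, and Grm7 was at rank 12 for Grm8 (0.845).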

How the data were processed

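RNA-seq reads (single-end, 50 bases, from a kit that does not keep the strand) had been aligned by the authors with STAR 2.0.4b to an Ensembl mouse assembly whose build is not given in the sources used here. The gene coordinates in the files match GRCm38 with GENCODE M21. The authors counted uniquely mapped reads per gene with featureCounts 1.4.5, and these counts are the deposited values that every result rests on. The deposited CPM and RPKM columns were computed by the authors from the same counts and were used as a check: CPM and RPKM recomputed here differed from them by at most 4.07e-10 and 2.76e-10.

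The 8 receptor genes were matched by symbol. No level entered the rule for them. They, the gene lists and the tests were nonetheless chosen with earlier results of these data known. From the 41388 genes, 37 mitochondrial and 353 rRNA and tRNA genes were left out, and a gene was tested where 3 libraries or more reached 0.5 cpm. This left 17043 genes in the RBP4 line, 16990 in the VGAT line and 16898 between the lines in TRAP and ST. Within a line all 20 libraries were fitted together. Tests used edgeR 4.0.16 in R 4.3.3 (quasi-likelihood, library size without a further factor, Benjamini-Hochberg over all genes tested), after the method was tested on simulated data. Confidence intervals cover 95%. DESeq2 1.42.0, TMM factors, a likelihood ratio test, other limits on low counts, all 40 libraries in one fit, the pool as a block and leaving out each pool were tried as alternatives. Python 3.11.15 with pandas 2.3.3 and matplotlib 3.10.9 made the tables and plots.

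Samples of the same number within a line came from the same pool by the study's methods. After group means were subtracted, their values correlated with an average r of 0.21 (RBP4) and 0.24 (VGAT), against -0.05 and -0.06 for other numbers. By pair of fractions the mean r was lowest for TRAP with ST (-0.009 in RBP4 and 0.06 in VGAT). It was highest for SNF with ST (0.39 and 0.47). The sources give a shared number no meaning between the lines. Genes whose values are named from the pathway lists are, in each comparison, the called gene with the smallest p in each direction of each list, and a few items are not reported here. The range of depth over all libraries stands in the report. The p-values of the main fits rest on the spread between libraries of the same group, over all groups of the fit. They have no term for the pool, so that the fractions of a pool count as separate libraries. Between the lines and in the interaction, libraries of both lines enter. No sequences are shown.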

Additional observations from a re-analysis of the deposited data

Results flagged for a closer look

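In 3 of the 64 groups of 5 libraries, 1 library stood farther from the others than Dixon's 95% limit allows, a limit that chance passes in about 1 of 20 groups. The highest Grm2 level in RBP4 SNF was 124 cpm in replicate 2, with the other 4 libraries between 61.9 and 75.7 cpm. The lowest Grm7 level in VGAT SNF was 80.3 cpm in replicate 3, with the others between 128 and 144 cpm. The lowest Grm8 level in VGAT ST was 9.996 cpm, also in replicate 3, with the others between 22.8 and 27.3 cpm. Replicate 3 also had the highest mitochondrial share of its group in VGAT SNF (41.9%, the others 13.3% to 19.4%) and VGAT ST (19.0%, the others 2.80% to 5.71%), and the highest sum of astrocyte markers in VGAT SNF (33658 cpm, the others 11318 to 17169) and VGAT ST (23092 cpm, the others 8498 to 20669). The part of these in the low levels was not tested. The change from TRAP to ST differed between the lines by a test of the difference itself for Grm2 (-2.55, edgeR adjusted p = 6.51e-05) and Grm3 (-1.05, edgeR adjusted p = 0.0188), both with a larger rise in the VGAT line.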

How the results depend on the processing

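Of 904 log2 fold changes of the 8 genes under settings other than leaving out a pool, 858 kept direction and side of the threshold, 21 fell below it, 11 passed it and 14 changed sign, all 14 of values that had not been called. Of 720 without a pool, the numbers were 660, 36, 4 and 20. Counts of called genes moved by over 1.5 times in TRAP against WCH of the RBP4 line (2 higher with TMM or DESeq2, 1 lower with TMM, DESeq2, no genes left out or no limit on low counts), in ST against SNF of the RBP4 line (1 lower with TMM, no genes left out or no limit), in TRAP against WCH of the VGAT line (2 higher with TMM or DESeq2, 0 with no limit or all 40 libraries in one fit) and in ST against SNF of the VGAT line (4 lower with no genes left out). With the pool as a replicate block, 5 genes were lower in ST than SNF of the RBP4 line and Grm7 joined the negative interactions, and no other call of a receptor gene was changed by the block. Between the lines, where a shared number has no stated meaning, the mean correlation of same-numbered libraries was 0.19 (WCH), 0.14 (TRAP), 0.22 (SNF) and 0.04 (ST), with 3, 2, 3 and 3 of 5 pairs over 0.1, and under the block by number Grm7 in SNF was at -0.62 (edgeR adjusted p = 0.732). Signs turned for Grm7 and Gabbr1 in TRAP against WCH of the RBP4 line (0.24 and 0.27 with TMM, 0.23 and 0.27 with DESeq2, 0.036 and 0.072 with no genes left out), Grm2 in ST against SNF of that line (0.036, no genes left out), Grm8 in ST against TRAP (0.013 with TMM, 0.080 with DESeq2, 0.028 without the RBP4 ST library of replicate 4) and, for ST between the lines, Gabbr1 (0.057 with TMM, 0.085 with DESeq2), Grm3 and Grm5 (0.0068 and 0.034 with DESeq2). The cause was not tested. Among the 16 nearest genes, 10 were shared with Spearman's correlation.

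Leaving out each pool gave these ranges. In TRAP against WCH, RBP4 line, 1 to 3 genes were lower, Grm7 was at -0.11 to 0.013 and Gabbr1 at -0.093 to 0.090, and in the VGAT line 0 to 2 were higher. In ST against SNF 0 to 2 (RBP4) and 5 to 8 (VGAT) were lower. In ST against TRAP, RBP4 line, 3 to 5 were higher, with Grm2 at -0.13 to 0.46, Grm7 at -0.086 to 0.39 and Grm8 at -0.51 to 0.15, and in the VGAT line Grm4 was at -0.0045 to 0.22. Between the lines 2 to 4 were higher in TRAP. In ST, Grm5 was at -0.38 to 0.032, Grm7 at -0.60 to 0.030, Grm8 at -0.39 to 0.32, Gabbr1 at -0.15 to 0.068 and Gabbr2 at -0.024 to 0.15, and in SNF Gabbr2 at -0.16 to 0.0098. In the interaction 0 to 1 were positive and 1 to 4 negative, with Grm5 at -0.27 to 0.38. The low levels of Grm2 in VGAT TRAP rest on 63 to 234 counts per library.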
